A study of Mus musculus with 6 samples.

Results

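The miR-132 and miR-212 cluster gives rise to 4 mature miRNAs, mmu-miR-132-3p, mmu-miR-132-5p, mmu-miR-212-3p and mmu-miR-212-5p. They were taken by name, as the 3p and 5p arms of miR-132 and miR-212, and are 4 of the 1978 known miRNAs counted. All 4 passed the expression filter, which left 619 miRNAs for testing. The study sequenced small RNAs from c-kit+ cardiac progenitor cells, a population of the heart marked by c-kit, a receptor tyrosine kinase. They came from wild-type (WT) male C57BL/6 mice aged 4 to 6 weeks and were sorted on magnetic beads coupled to anti-c-kit. The control group has 3 libraries labelled 0 hours, and the hypoxia group has 3 libraries of cells cultured under hypoxia for 12 hours. The treatment label reads hypoxia in both groups, so the groups follow the sample titles and times, and the column prefixes 0 and 1 were read as control and hypoxia.

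Some points of the labels limit what the groups can show. The libraries are called biological replicates, but nothing says that they came from separate animals or cultures. P-values therefore measure only how these libraries spread, which may be technical. The labels' protocol names RNA of exosomes, vesicles that cells secrete, but the design text names RNA of the cells. If the 0-hour cells were not also cultured for 12 hours, time in culture and hypoxia cannot be told apart. In these bulk samples fewer cells of a type and less RNA per cell cannot be told apart either. Libraries carried 12285970 to 16975987 counts of known miRNAs and are named by group and column letter (A, B or C). miR-210-3p, a miRNA induced by the hypoxia-inducible factors, averaged 232 ± 56.8 CPM (SD, n = 3) in control libraries and 527 ± 128 CPM (SD, n = 3) in hypoxia libraries, without overlap between the groups, as did 12.9% of all tested miRNAs. edgeR gave it a log2 fold change of 1.19 with an adjusted p = 0.65, and an adjusted p = 0.024 with the column letter as a block. CPM here denotes read counts brought to a common library size with TMM, a scaling that aligns libraries on the bulk of their miRNAs.

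A miRNA hairpin is cut into a duplex whose arms, 5p and 3p, can each be loaded into an Argonaute protein, and the loaded arm then represses mRNAs that pair with its seed (bases 2 to 8). The transcript that carries miR-132 and miR-212 is known in neurons as a target of the transcription factor CREB. In the heart the cluster is known for promoting hypertrophy of cardiomyocytes and for repressing their autophagy, through repression of the transcription factor Foxo3. miR-132 is also known to restrain the Ras inhibitor Rasa1 in endothelial cells, where it promotes vessel growth.

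The 4 mature sequences, from the RefSeq annotation of GRCm38.p6, are shown with the seed in capitals. The seed divides the cluster into arms that have it in common and arms that differ in it. Their mRNA targets were not examined.
miR-132-3p: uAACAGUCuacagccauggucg
miR-212-3p: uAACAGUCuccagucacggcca
miR-132-5p: aACCGUGGcuuucgauuguuac
miR-212-5p: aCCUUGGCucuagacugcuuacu
The 3p arms begin with U and have the same seed, AACAGUC, which no other mature miRNA in that RefSeq table carries. Along their 22 bases they are identical at 17, and the differences, counted from the 5′ end of miR-132-3p with its base first, are A10C, C14U, U17C, U20C and G22A. All 5 lie outside the seed. The 5p arms begin with A and have different seeds, ACCGUGG and CCUUGGC, each carried by 1 mature miRNA of the table. When miR-132-5p is aligned from its second base they are identical at 14 of 21 positions, and the first difference, G5U in the numbering of miR-132-5p, lies within both seeds.

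Both hairpins lie on the plus strand of chromosome 11 and are shown with the mature arms in capitals, so that the place of each arm in its precursor can be seen.
Mir212, chr11:75173388-75173478: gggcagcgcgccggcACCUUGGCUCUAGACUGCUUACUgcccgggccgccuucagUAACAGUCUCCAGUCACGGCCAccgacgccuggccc
Mir132, chr11:75173682-75173747: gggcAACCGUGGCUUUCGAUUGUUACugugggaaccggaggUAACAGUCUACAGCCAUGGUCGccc
The hairpins are 91 and 66 bases long, with 203 bases between them. In GENCODE M21 both fall in an intron of the noncoding transcript 1700016P03Rik (75172560 to 75177633, plus strand, 3 exons). The nearest protein-coding genes there are Hic1, a transcriptional repressor (75164565 to 75169519, minus strand), and Ovca2 (75175942 to 75178835, minus strand). The submitters' processing notes name mm10, the same assembly as GRCm38. No other known miRNA had counts within 1% of a member's in every library. That rule finds only rows with nearly equal counts, so it cannot show whether some reads were shared, as between the similar 3p arms.

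All 4 miRNAs were detected in all 6 libraries, with the same order in each: miR-132-3p first, then miR-132-5p, miR-212-5p and miR-212-3p. Since they are 22 or 23 bases long, levels were compared without a length correction. Levels are numbers of reads, and how fully each sequence was captured as reads was not measured. Comparisons between members are therefore of reads and not of molecules in the cells. By mean CPM they ranked 204, 253, 283 and 446 among the known miRNAs. miR-132-3p and miR-132-5p did not overlap in level over the libraries, and neither did miR-212-5p and miR-212-3p. miR-132-5p and miR-212-5p came close, their ranges overlapping between 33.5 and 34.1 CPM, although miR-132-5p was the higher one within each library.

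**Figure D1:**
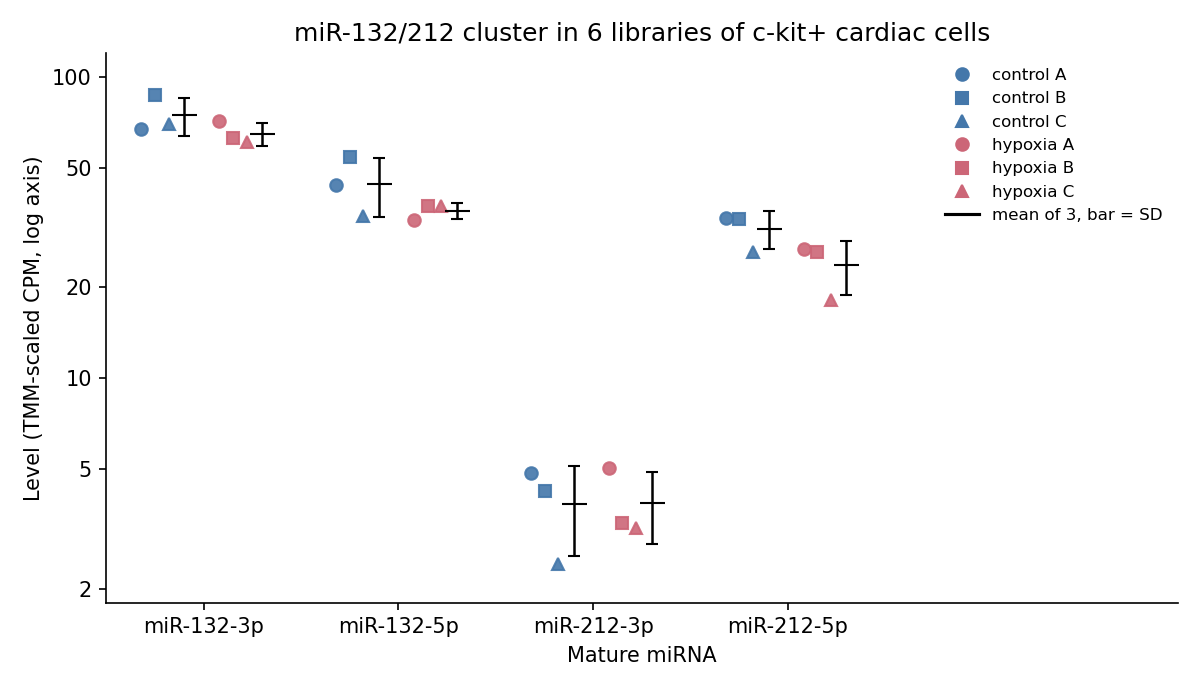
Level of each mature miRNA in each library in TMM-scaled CPM on a log axis, with control in blue and hypoxia in red, the letter as the symbol, and the mean of 3 libraries with its SD beside the points. The points of the groups overlap for every miRNA, and miR-212-3p lies at 2.42 to 5.05 CPM, below the other members.

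Almost all reads with the seed AACAGUC were those of miR-132-3p. In control A, B and C it gave 93.3%, 95.4% and 96.6% of the reads with that seed. In hypoxia A, B and C it gave 93.4%, 95.0% and 95.0%. The control mean was 95.1% ± 1.71 and the hypoxia mean 94.5% ± 0.924 (SD, n = 3 each). Among controls, A was the lowest and C the highest. The exact Clopper-Pearson 95% interval of control A, 91.4% to 94.8% of 889 reads, did not overlap that of control C, 95.4% to 97.6% of 1130 reads. Such intervals cover counting error only and treat reads as independent. PCR copies are not independent molecules, so the intervals may be too narrow to show a difference between these libraries. The miR-132 hairpin as a whole gave 77.1% ± 2.68 of the cluster's reads in control libraries and 78.7% ± 2.97 in hypoxia libraries (SD, n = 3 each).

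Hypoxia was compared with control by edgeR's quasi-likelihood test over all 619 tested miRNAs, with Benjamini-Hochberg adjustment at 0.05. None of the 4 members passed (0 of 4), and the background was 0% of tested miRNAs called (0 of 619). At an unadjusted p under 0.05 there were 0 members, against 6.79% of the tested miRNAs (42). DESeq2 and limma-voom called 0 of the 4 as well. Their backgrounds were 0.0756% (1 of 1322, as DESeq2 was run without the expression filter) and 0% (0 of 619). The log2 fold changes were below 0 for 3 members and near 0 for miR-212-3p, with a median of -0.25 beside a median of 0.01 over all tested miRNAs. No member separated the groups in CPM, which 12.9% of the tested miRNAs did.

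miR-132-3p, for which repression of Foxo3 and Rasa1 is known, stood at 67.1, 86.8 and 69.5 CPM in control A, B and C. In hypoxia A, B and C it stood at 71.3, 62.6 and 60.7 CPM. Control B was the highest library, and hypoxia A lay above both other controls, so the groups overlapped. The means were 74.5 ± 10.8 and 64.8 ± 5.67 CPM (SD, n = 3 each), and edgeR gave a log2 fold change of -0.20 (SE 0.20) with an adjusted p = 0.97. Its 95% interval, from -0.65 to 0.25, corresponds to 0.636-fold to 1.19-fold. This member varied by 13.4% (coefficient of variation over the 6 libraries), where its read numbers alone would give 3.14%.

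miR-132-5p, the opposite arm of the same hairpin, stood at 43.6, 54.2 and 34.6 CPM in control A, B and C and at 33.5, 37.3 and 37.2 CPM in hypoxia A, B and C. The hypoxia libraries lay close together. Control A and B lay above all of them, while control C lay above hypoxia A and below hypoxia B and C. The means of 44.2 ± 9.82 and 36.0 ± 2.15 CPM (SD, n = 3 each) differed by -0.29 on the log2 scale in edgeR (SE 0.22, adjusted p = 0.92). The 95% interval ran from -0.79 to 0.20.

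miR-212-5p was the member with the lowest p. It stood at 34.1, 33.8 and 26.2 CPM in control A, B and C and at 26.7, 26.2 and 18.1 CPM in hypoxia A, B and C. Control C lay at the level of hypoxia A and B, and hypoxia C was the lowest of all, with 250 counts. The means were 31.4 ± 4.49 and 23.7 ± 4.82 CPM (SD, n = 3 each). The edgeR log2 fold change was -0.40 (SE 0.23, adjusted p = 0.79), and 88 of the 619 tested miRNAs had a lower p. The 95% interval, -0.92 to 0.12, corresponds to 0.527-fold to 1.09-fold. Without hypoxia C the log2 fold change was -0.27 (edgeR adjusted p = 0.98).

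miR-212-3p, which has the same seed as miR-132-3p, was the rarest member, with 38 to 84 counts per library. It stood at 4.86, 4.23 and 2.42 CPM in control A, B and C and at 5.05, 3.31 and 3.19 CPM in hypoxia A, B and C. The A library was the highest in both groups and control C the lowest. The means were 3.83 ± 1.27 and 3.85 ± 1.04 CPM (SD, n = 3 each), and the edgeR log2 fold change was 0.01 (SE 0.35, adjusted p = 0.99). The 95% interval, -0.78 to 0.81, spans 0.582-fold to 1.75-fold, and with the column letter as a block, described further on, it ran from -0.54 to 0.58. The sign rested on single libraries, as the value was -0.25 without control C and -0.23 without hypoxia A.

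Libraries with the same letter deviated together from their group means over the tested miRNAs, so the letter was also entered as a block. With the block edgeR called 2.26% of the tested miRNAs (14 of 619) and 0 of the 4 members, and 21.3% of tested miRNAs had an unadjusted p under 0.05. Among the members that was miR-212-5p alone, at -0.41 (SE 0.13, 95% interval -0.70 to -0.13, edgeR adjusted p = 0.10). It was lower in hypoxia in every letter, the log2 differences being -0.35, -0.37 and -0.53 in A, B and C. Of all tested miRNAs 19.5% (121) were lower in every letter. The other members went both ways within letters. miR-132-3p differed by 0.09, -0.47 and -0.20 in A, B and C, miR-132-5p by -0.38, -0.54 and 0.10, and miR-212-3p by 0.06, -0.35 and 0.40. All 4 members were lower in hypoxia in the B libraries, where control B had the highest level of both miR-132 arms. Without control B the log2 fold changes of these arms were -0.10 (3p) and -0.14 (5p) in edgeR without the block.

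**Figure D2:**
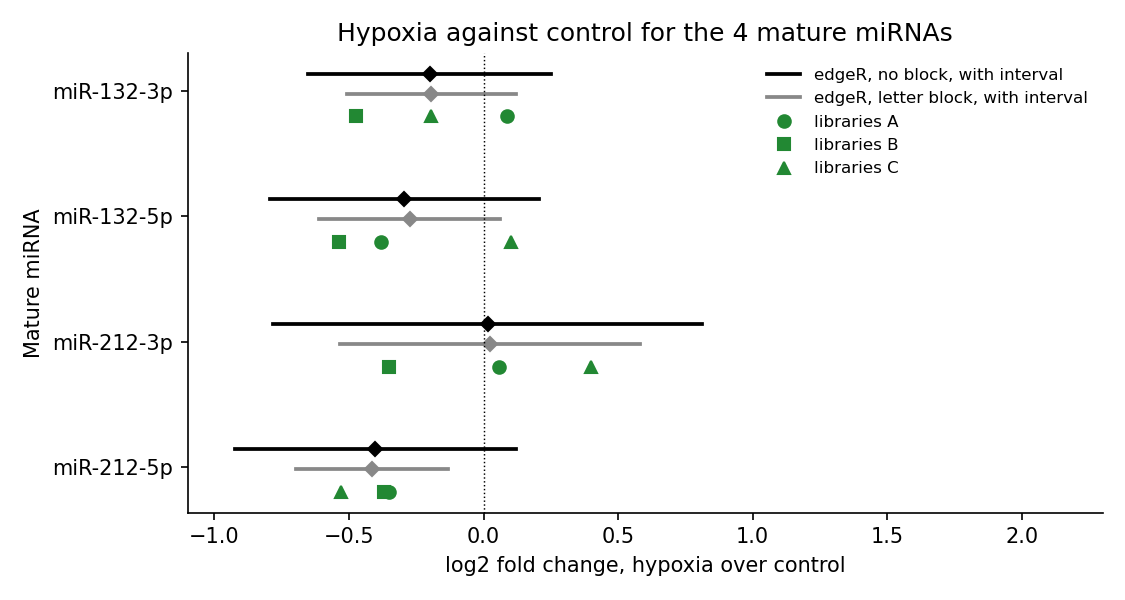
Log2 fold change of hypoxia over control for each mature miRNA, with 95% intervals from edgeR without a block (black) and with the letter as a block (grey), and the log2 difference within each letter in green. All intervals without the block include 0, and with the block only that of miR-212-5p (-0.70 to -0.13) does not, before adjustment over the 619 tested miRNAs.

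Summed over the cluster, levels were 150, 179 and 133 CPM in control A, B and C and 137, 129 and 119 CPM in hypoxia A, B and C. The hypoxia libraries were the lower ones within every letter, but hypoxia A lay above control C. The means were 154 ± 23.5 and 128 ± 8.78 CPM (SD, n = 3 each), a difference of -25.5 CPM (two-sided exact permutation test, p = 0.2, adjusted p = 0.5 over 5 single-value tests, smallest possible p 0.1). Without control B, in which the sum was highest, the difference was -12.8 CPM.

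Ratios between members do not depend on how libraries are scaled. In reads the 2 hairpins had opposite higher arms: miR-132-3p exceeded miR-132-5p by 1.75-fold on average, and miR-212-5p exceeded miR-212-3p by 7.19-fold. These are geometric means over the 6 libraries, from counts with 0.5 added. The log2 ratio of miR-132-3p to miR-132-5p was 0.62, 0.68 and 1.00 in control A, B and C and, in hypoxia A, B and C, 1.09, 0.74 and 0.71. It was thus above 0 in all 6 libraries, and the groups overlapped (difference 0.08, two-sided exact permutation test, p = 0.5, adjusted p = 0.63). The log2 ratio of miR-212-3p to miR-212-5p was -2.80, -2.99 and -3.42 in control A, B and C and, in hypoxia A, B and C, -2.40, -2.97 and -2.49. It was below 0 in all 6, and 2 of the 3 hypoxia libraries lay above every control (difference 0.45, exact permutation p = 0.2, adjusted p = 0.5).

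Between the hairpins, miR-132-3p exceeded miR-212-3p by 18.4-fold in reads and miR-132-5p exceeded miR-212-5p by 1.47-fold on average. The log2 ratio of the 3p arms was 4.32 ± 0.53 in control libraries and 4.09 ± 0.24 in hypoxia libraries, and that of the 5p arms 0.48 ± 0.18 and 0.62 ± 0.37 (SD, n = 3 each). Neither difference, -0.23 and 0.14, was larger than the spread between libraries (two-sided exact permutation tests, p = 0.5 and 0.7, adjusted p = 0.63 and 0.7).

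**Figure D3:**
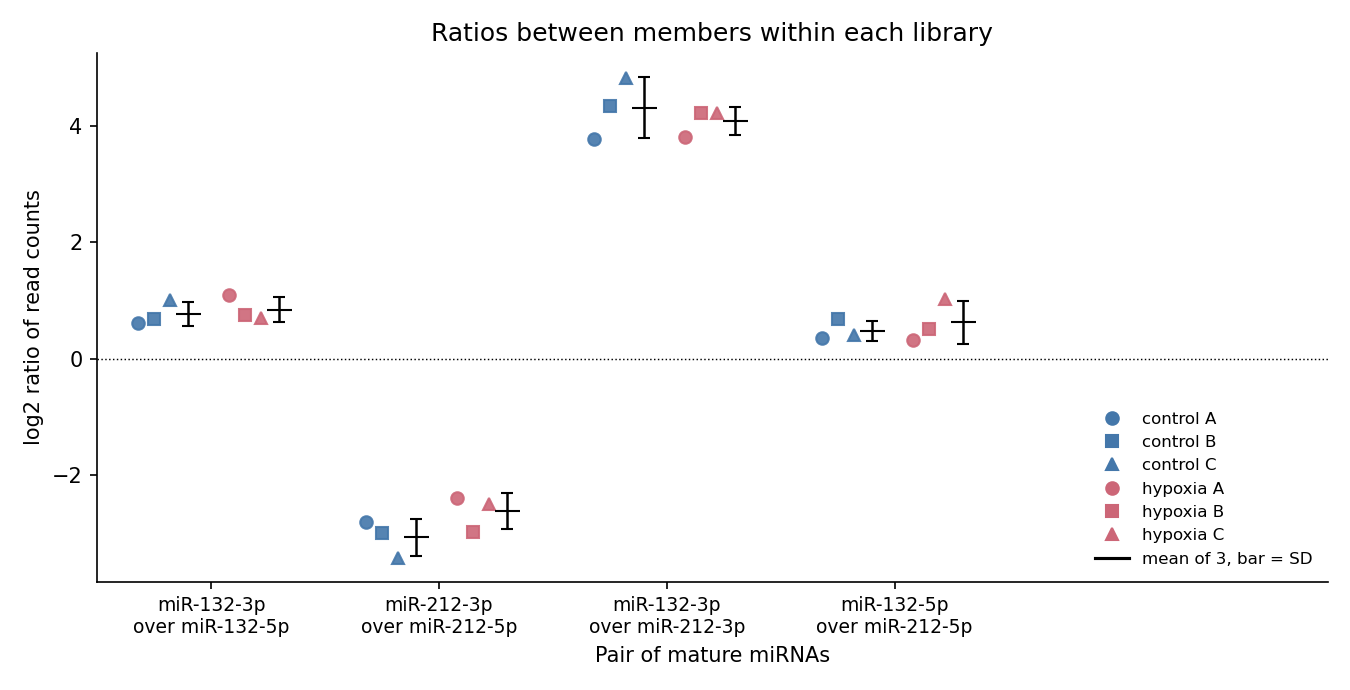
Log2 ratio of read counts (with 0.5 added) for 4 pairs of members in each library, with the mean of 3 libraries and its SD. The 3p arm is the higher one for miR-132 and the lower one for miR-212 in all 6 libraries, and the groups overlap in all 4 ratios.

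Both arms were tested for 189 hairpins, of which the 3p arm was the higher one on average in 87 and the 5p arm in 102. The median size of the log2 arm ratio was 3.05. The miR-132 ratio, 0.81 on average, was among the more even ones, with 31 hairpins closer to 0. The miR-212 ratio, -2.85, was near the median size, with 89 hairpins closer to 0. Between groups the arm ratio separated the libraries without overlap in 18.5% of these hairpins (35), and in neither hairpin of the cluster. The difference between groups was larger in size than that of miR-132 in 158 hairpins and than that of miR-212 in 50. Over the 6 libraries the log2 ratio of miR-132 spanned 0.47 and that of miR-212 1.02, beside a median span of 0.90.

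**Figure D4:**
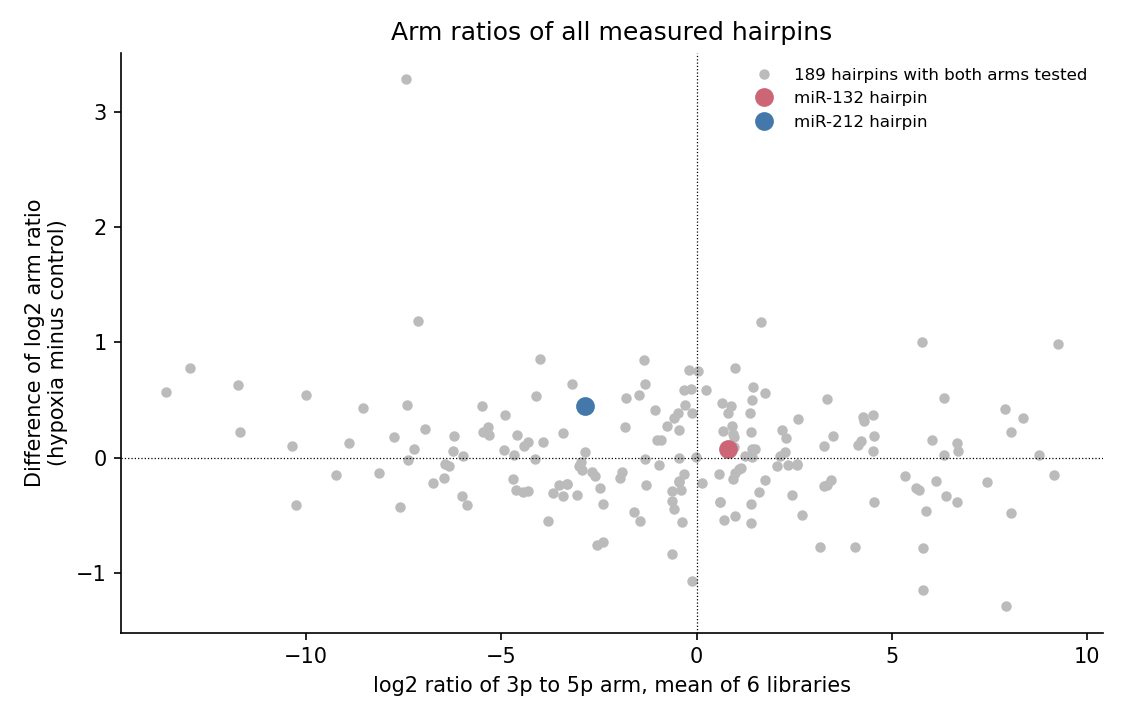
Mean log2 ratio of the 3p to the 5p arm over 6 libraries (horizontal axis) and its difference between hypoxia and control (vertical axis) for 189 hairpins with both arms tested, with miR-132 in red and miR-212 in blue. Both hairpins lie within the cloud of the others, miR-132 at 0.81 and 0.08 and miR-212 at -2.85 and 0.45.

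Across libraries the members followed each other only in part. The Pearson correlation of log2 CPM over the 6 libraries was 0.68 between the arms of miR-132 (Spearman 0.09), 0.51 between those of miR-212 (0.77), and 0.33 between the 3p arms (0.43). Those between the other pairs ran from 0.35 to 0.68. With 6 libraries that share depth and letter these are descriptions only. Among the 361 other miRNAs with at least 10 CPM, the pattern most like that of miR-132-3p was that of miR-99b-3p (r = 0.90, Spearman 0.94). Then came miR-501-3p (0.88), miR-1843b-3p (0.87), miR-671-5p (0.86) and miR-140-5p (0.84). All 5 had their highest level in control B, like miR-132-3p, and their log2 fold changes ran from -0.57 to -0.20, with 0 of 5 called. For miR-212-3p, compared with 362 miRNAs, the nearest were miR-9-5p, a miRNA of neural cells (r = 0.93), miR-7b-5p (0.91) and miR-100-5p (0.90). These 3 had their lowest level in control C, as miR-212-3p did. Both sets were picked by correlation over these same 6 libraries, so shared highs, lows and signs follow in part from the choice.

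Other miRNAs with a known part in hypertrophy or autophagy were counted from lists taken from the literature. Over all tested miRNAs, 317 of 619 lay above 0 and 302 below, with a median of 0.01. The lists share members with each other and with the cell type markers below, 4 of the 11, 6 of the 10 and 2 of the 12 being on another list, so their counts are not independent. Of 11 miRNAs known to promote hypertrophy, 9 were tested, with 7 above 0, 2 below 0 and 0 called (median log2 fold change 0.07). The highest of them was miR-21a-5p, at 307478 ± 46384 CPM in control libraries and 282912 ± 29458 CPM in hypoxia libraries (SD, n = 3 each). The largest positive value was that of miR-199b-5p, 0.59 (SE 0.35, edgeR adjusted p = 0.82). Of 10 miRNAs known to restrain hypertrophy all were tested, with 8 above 0, 2 below 0 and 0 called (median 0.19), from -0.09 for miR-378a-3p to 1.17 for miR-133b-3p, a muscle miRNA at 1.11 CPM in control. The highest of these was miR-26a-5p, at -0.07 (SE 0.13).

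Of 12 miRNAs known to repress autophagy genes, all 12 were tested, with 10 above 0, 2 below 0 and 0 called (median 0.09). Among them miR-30a-5p, a repressor of Beclin 1, was the highest and gave 0.09 (SE 0.13). miR-101a-3p had the largest positive value, 0.43 (SE 0.17, edgeR adjusted p = 0.71), and miR-204-5p the largest negative one, -0.30 (SE 0.45). The letter block called 0 members of these 3 lists.

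Markers of cell types in which the cluster is best known were measured alongside. Of 8 neural markers 6 were tested, with 3 above 0, 3 below 0 and 0 called (median 0.04). The list summed to 1538 to 1942 CPM in control libraries and 1264 to 1929 CPM in hypoxia libraries. Most of that sum was miR-218-5p (1245 ± 243 and 1163 ± 372 CPM, SD, n = 3 each), which vascular cells express too. Next came miR-128-3p (424 ± 24.3 and 397 ± 38.5 CPM), miR-9-5p (26.8 ± 9.27 and 30.4 ± 8.90 CPM) and miR-9-3p (6.36 ± 1.79 and 10.4 ± 2.61 CPM). miR-9-3p (log2 fold change 0.71, SE 0.30, edgeR adjusted p = 0.72) did not overlap between the groups, as 12.9% of tested miRNAs did not. The neuronal miR-124-3p was at 1.60 ± 0.933 and 3.29 ± 2.63 CPM, and miR-219a-5p, of oligodendrocytes, at 0.904 ± 0.149 and 0.813 ± 0.555 CPM. Of the same list, miR-137-3p (0 to 2 counts per library) and miR-153-3p (0 to 6) did not pass the expression filter. Of 6 cardiomyocyte markers 4 were tested, with 4 above 0 and 0 called (median 0.54), at sums of 77.2 to 172 and 104 to 176 CPM. Of these miR-1a-3p was the highest (log2 fold change 0.27, SE 0.34), followed by miR-133a-3p (0.56, SE 0.37) and miR-499-5p (0.52, SE 0.51). The lowest was miR-133b-3p, with 9 to 55 counts per library (1.17, SE 0.45, edgeR adjusted p = 0.66). Like miR-9-3p and 12.9% of all tested miRNAs, it did not overlap between the groups. miR-208a-3p, from an intron of the cardiac myosin gene Myh6, did not pass the expression filter, with 3 counts in each control library and 6, 9 and 4 in hypoxia A, B and C.

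Endothelial miR-126a-3p and miR-126a-5p summed to 227203 to 249650 CPM in control libraries and 200664 to 238068 CPM in hypoxia, with log2 fold changes of -0.09 and 0.28 and 0 of 2 called. Fibroblast and smooth muscle markers had 4 of 6 above 0 and 0 called (median 0.08), at sums of 26244 to 57808 and 26803 to 50688 CPM. The highest was miR-143-3p (-0.10), with miR-199a-3p at 0.38 and miR-145a-5p at -0.13. Of 6 blood cell markers 4 were tested, with 3 above 0 and 0 called (median 0.05), at sums of 15.1 to 27.4 and 12.3 to 30.7 CPM. Log2 fold changes were 0.07 for miR-150-5p, 0.37 for miR-451a and -0.19 for miR-142a-5p. The sums of all 5 marker lists overlapped between the groups. Their part in the levels of the 4 members was not tested.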

How the data were processed

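The deposited table holds raw counts, made by the authors, as whole numbers per known mature miRNA with 1 column per library. Per the submitters' processing notes, bcl2fastq 2.0, DESeq2 and mm10 were used, with no role stated. Aligner, counting program and miRNA release: not given in the sources used here. A second table, of predicted miRNAs, was not used.

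The test was run with edgeR 4.0.16 in R 4.3.3 (filterByExpr, TMM, quasi-likelihood test of hypoxia against control, Benjamini-Hochberg adjustment over 619 miRNAs, tested on simulated data). DESeq2 1.42.0, limma 3.58.1 (voom), other scalings and filters, and leaving out libraries were alternatives. Standard errors were taken as the size of the log2 fold change over the root of the F statistic. In the library of lowest depth a count of 0 would allow a level of 0.244 CPM (3 counts). Log2 CPM used a prior count of 2.

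Columns were matched to groups by their digit, and letters match no label. Same-letter libraries correlated in their deviations from group means (0.52, 0.43 and 0.28 for A, B and C), each over the limit of 0.1. Among pairs with unlike letters, control C with hypoxia B passed that limit too (0.12). The letters were taken as a pairing from the values and not the labels. The fit with the block uses these same values, so it cannot show that the pairing is real. The members and lists were chosen with earlier results of these data known. Beside the 4 members and miR-210-3p, named miRNAs were, per list, the highest, the largest positive and the largest negative, and the nearest in pattern to miR-132-3p (5) and miR-212-3p (3). Outside that rule, miR-128-3p, miR-9-3p, miR-133a-3p, miR-208a-3p, miR-208b-3p, miR-499-5p, miR-137-3p and miR-153-3p were chosen once their values had been seen.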

Additional observations from a re-analysis of the deposited data

How the results depend on the processing

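The 3 members below 0 kept that sign and stayed uncalled in all 17 alternatives each, from -0.34 to -0.08 for miR-132-3p, -0.47 to -0.14 for miR-132-5p and -0.53 to -0.27 for miR-212-5p. The lowest edgeR adjusted p were 0.22, 0.35 and 0.10. With the letter as a replicate block, which pairs the libraries, the count of called miRNAs went from 0 to 14, the members at -0.19, -0.27, 0.02 and -0.41, and no member's call changed. The count was 4 with no filter and 1 in DESeq2, and 0 to 23 with libraries or pairs left out. miR-212-3p changed sign with no filter (-0.0074) and ran from -0.25 to 0.19 with libraries or pairs left out. It had no value under a minimum of 10 CPM in 3 libraries. Within letters, an exact sign-flip permutation test of the 3 pairs cannot go below p = 0.25. The cause of these changes was not tested.

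With 1 library left out, the group difference ran from -0.043 to 0.20 for the log2 ratio of miR-132-3p to miR-132-5p, from -0.50 to 0.028 for miR-132-3p to miR-212-3p, and from -0.062 to 0.29 for miR-132-5p to miR-212-5p. It stayed above 0 for miR-212-3p to miR-212-5p (0.27 to 0.62) and below 0 for the cluster sum (-36.0 to -12.8 CPM). With RLE size factors the cluster sum did not overlap between the groups (-26.1 CPM, exact permutation p = 0.1, the smallest possible). Counting error was largest for miR-212-3p, whose 38 to 84 counts alone give a coefficient of variation of 13.4%, against 26.9% observed over the 6 libraries.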
